A study of Mus musculus with 6 samples.

Results

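The 9 genes described here make, carry, break down or sense retinoic acid: Aldh1a1, Aldh1a2, Aldh1a3, Dhrs3, Stra6, Crabp1, Crabp2, Cyp26b1 and Rarb. They were taken by gene symbol from a read count table of 22851 genes, which held all 9 of them. Of these, 6 had enough counts to be among the 14243 genes tested, and Crabp2, Stra6 and Cyp26b1 did not. Radial glial cells, progenitors of the ventricular wall, came from brains of C57BL/6J mice aged P0-P3 and were kept without serum for 6 days to become multiciliated ependymal cells. RNA was sequenced from 3 WT cultures and from 3 cultures of Edf1 KO mice, which were made with CRISPR/Cas9, and both genotypes shared the strain background, the medium and the 6 days of induction. Whether brains were pooled, how many mice were used, and whether the deletion is present in every cell of the mouse are not given in the sources used here. The protein made from Edf1 bridges transcription factors to the basal machinery and also binds collided ribosomes, and the comparison of the genotypes asks which genes depend on it.

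Retinoic acid is made from vitamin A in steps. Retinol is taken up and bound in the cell, oxidised to retinaldehyde, and then oxidised irreversibly to retinoic acid by the Aldh1a enzymes, while Dhrs3 reduces retinaldehyde back to retinol. Retinoic acid is held by the Crabp proteins, is cleared by Cyp26 enzymes, and acts through retinoic acid receptors (Rar) paired with Rxr on DNA. In the developing brain, the meninges and the choroid plexus are known sources of retinoic acid, and Rarb, Dhrs3, Stra6, Crabp2 and the Cyp26 genes are known to respond to it.

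The upstream letters of the 3 member genes that changed are shown because receptor binding letters are known for this pathway. RefSeq windows on GRCm38.p6, from 250 bases before to 50 after a gene's start, were found for 7 of the 9 members. They were searched on both strands for a pair of receptor hexamers in the same direction, with 1, 2 or 5 bases between them. The hexamers searched were AGGTCA and its variant AGTTCA, and the forms of both that begin with G, which are GGGTCA and then also GGTTCA. One member held such a pair. In Rarb it lay from 53 to 37 bases before the RefSeq start, with 5 bases between the hexamers, and the GENCODE M21 annotation places the same bases in 5′ UTR exons of 2 Rarb transcripts. Capitals mark the hexamers in the lines that follow.
Rarb, chr14:16575507-16575535, minus strand: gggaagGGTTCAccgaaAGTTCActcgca
Aldh1a1, chr19:20601718-20601960, plus strand: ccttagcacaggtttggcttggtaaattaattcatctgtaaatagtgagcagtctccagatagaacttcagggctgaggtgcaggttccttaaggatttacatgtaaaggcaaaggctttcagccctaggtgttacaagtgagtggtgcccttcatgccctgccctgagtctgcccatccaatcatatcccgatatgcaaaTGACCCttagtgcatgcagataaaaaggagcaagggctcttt
Dhrs3, chr4:144892577-144892826, plus strand: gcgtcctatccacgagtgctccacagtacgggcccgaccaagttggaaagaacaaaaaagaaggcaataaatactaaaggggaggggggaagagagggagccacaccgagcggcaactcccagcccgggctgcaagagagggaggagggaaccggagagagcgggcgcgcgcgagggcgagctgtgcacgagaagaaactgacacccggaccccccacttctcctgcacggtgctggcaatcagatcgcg
The Aldh1a1 stretch, before the second of its 2 RefSeq starts, holds 1 hexamer, and the Dhrs3 stretch, before the most upstream of its 3 starts, holds 0. Of all 32851 RefSeq windows of this length, 0.0974% hold a pair with 5 bases between, 0.588% hold a pair with any of the 3 spacings, and 43.7% hold at least 1 hexamer. These matches describe letters only.

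Total counts per library were 13071766 to 28087006, so 3 counts, taken as the floor of a library, correspond to 0.106 to 0.233 CPM, the counts scaled to a common library size. Edf1 itself was at 80.2 to 85.9 CPM in the WT libraries and at 9.84 to 13.2 CPM in the Edf1 KO libraries. The first principal component separated the genotypes (60.7% of the variance), and the second separated WT replicate 2, the shallowest library, from the other WT libraries. Of all tested genes, 26.9% were called at an adjusted p under 0.05 by edgeR's quasi-likelihood test, 12.7% higher and 14.2% lower in Edf1 KO. Against that background, 3 members were called: Aldh1a1 and Rarb rose and Dhrs3 fell. Of all tested genes, 10.1% were called with a log2 fold change of at least 0.5 in size, as were Aldh1a1 and Dhrs3. In 43.3% of all tested genes the 3 libraries of one genotype lay wholly above those of the other, and this held for 3 members, Aldh1a1, Dhrs3 and Crabp1.

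**Figure D1:**
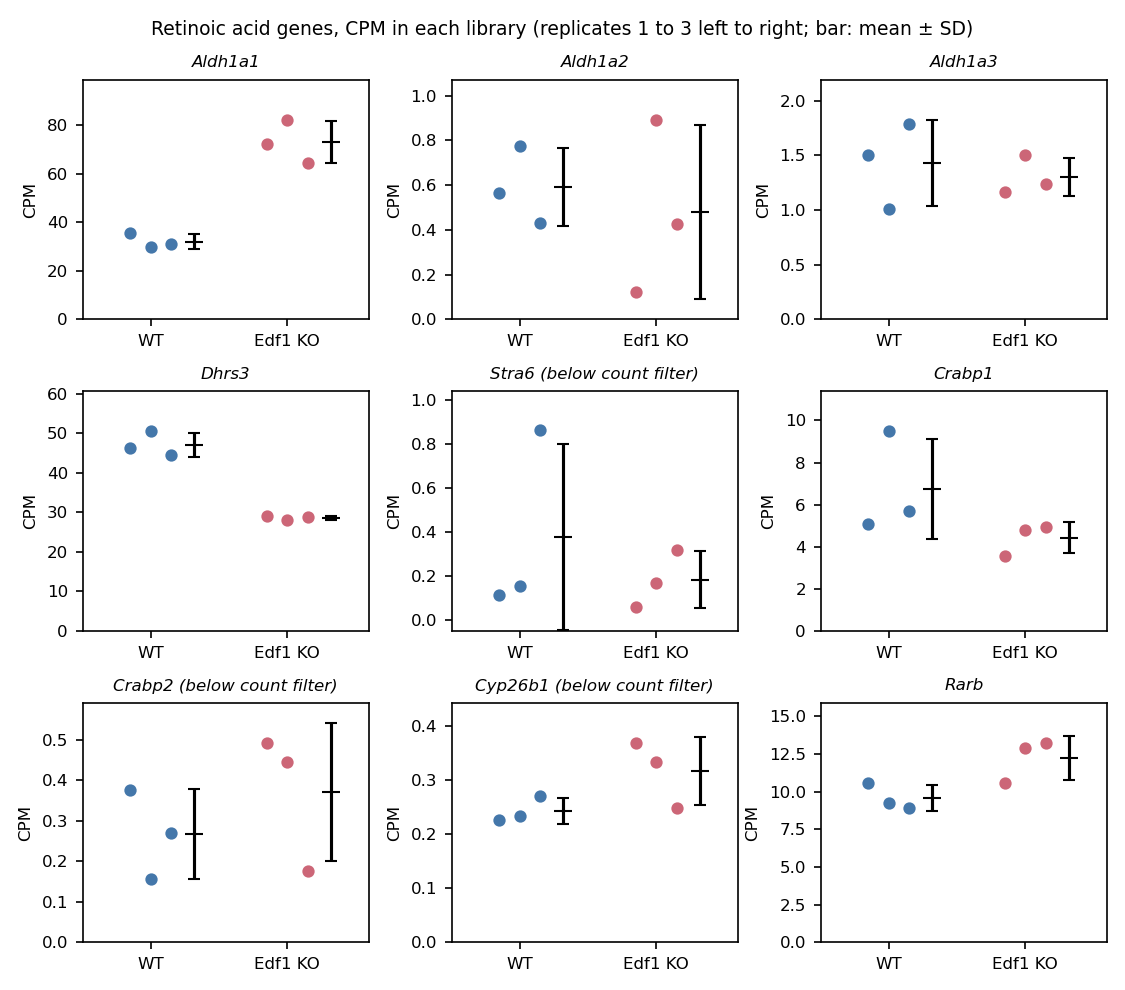
CPM (linear axes, a scale for each gene) of each of the 9 genes in every WT (blue) and Edf1 KO (red) library, with the group mean ± SD beside the points (n = 3). Aldh1a1 and Dhrs3 separate the genotypes widely, while the points of Aldh1a2, Aldh1a3, Crabp2, Stra6 and Cyp26b1 overlap.

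Among the enzymes that make retinoic acid, Aldh1a1 (ENSMUSG00000053279.8, chr19:20492715-20643465 on GRCm38) carried the change. It had 35.5, 29.7 and 30.98 CPM in WT replicates 1, 2 and 3 and 72.4, 82.1 and 64.5 CPM in Edf1 KO replicates 1, 2 and 3. Every Edf1 KO library was above every WT library. In bulk RNA, here and in the results that follow, more or fewer cells of a type and more or less RNA per cell cannot be told apart. The mean rose from 32.05 ± 3.05 to 73.0 ± 8.81 CPM (SD, n = 3 each), which is 2.28-fold. On the log2 scale this was 1.17 (SE 0.093), at an adjusted p of 2.37e-06 by edgeR, and larger in size than that of 98% of the tested genes. Part of this count could belong to a near copy: 12% of the 31-base stretches of the longest Aldh1a1 transcript also occur in Aldh1a7, a neighbouring gene of the same family. Aldh1a7 itself rose, from 0.967 ± 0.445 to 2.04 ± 0.466 CPM (SD, n = 3 each; log2 fold change 0.97, SE 0.32, adjusted p 0.0416 by edgeR), with all Edf1 KO libraries above all WT libraries. The part of Aldh1a7 reads in the Aldh1a1 count was not tested.

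The other enzymes of this step were scarce and did not pass the test. Aldh1a2 (chr9:71215789-71296243), the main enzyme of the early embryo and the meninges, had 0.565, 0.777 and 0.432 CPM in WT and 0.123, 0.891 and 0.425 CPM in Edf1 KO. The lowest and the highest of these 6 values were both Edf1 KO libraries. Its log2 fold change was -0.25 (95% interval -1.28 to 0.78, adjusted p 0.766 by edgeR), and without Edf1 KO replicate 1, which had 2 counts, it was 0.11. Aldh1a3 (chr7:66390890-66427517) had 1.51, 1.01 and 1.78 CPM in WT and 1.17, 1.504 and 1.24 CPM in Edf1 KO, so the groups overlapped. Its log2 fold change was -0.18 (95% interval -0.72 to 0.37, adjusted p 0.685 by edgeR). Both intervals reach well to either side of 0.

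Per kilobase of the longest coding transcript, the scale on which different genes can be compared, Aldh1a1 was at 12.6 to 15.05 CPM per kb in WT and 27.4 to 34.8 in Edf1 KO. Aldh1a2 was at 0.054 to 0.394 CPM per kb and Aldh1a3 at 0.293 to 0.518 over all 6 libraries. Aldh1a1 therefore made up 94.9% to 95.6% of the summed level of these 3 genes in WT and 97.7% to 98.7% in Edf1 KO. The summed level per kb was 13.2 to 15.7 in WT and 27.9 to 35.7 in Edf1 KO.

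Dhrs3 (ENSMUSG00000066026.14, chr4:144892827-144928209), the retinaldehyde reductase that runs against synthesis, moved the other way. It had 46.3, 50.5 and 44.6 CPM in WT replicates 1, 2 and 3 and 29.1, 28.02 and 28.9 CPM in Edf1 KO replicates 1, 2 and 3. The groups did not overlap, and the Edf1 KO libraries lay close together. The mean fell from 47.1 ± 3.03 to 28.7 ± 0.556 CPM (SD, n = 3 each), to 60.8% of WT. The log2 fold change was -0.71 (SE 0.070, adjusted p 1.18e-05 by edgeR). Dhrs3 shares no exon bases and no 31-base stretch of its longest transcript with another annotated gene. Set side by side per kb in each library, the ratio of Aldh1a1 to Dhrs3 was 0.759, 0.582 and 0.688 in WT and 2.47, 2.90 and 2.22 in Edf1 KO. In every WT library Dhrs3 was the higher of the pair, and in every Edf1 KO library Aldh1a1 was.

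Stra6 (chr9:58063788-58153996), the membrane receptor that takes up retinol from its carrier in blood, was near the floor. It had 3, 2 and 16 counts in WT and 1, 3 and 9 counts in Edf1 KO, so 4 of 6 libraries held 3 counts or fewer. It was too low for the main test. In the edgeR fit without the count filter its log2 fold change was -0.85 (SE 0.78, adjusted p 0.502). A difference was not detectable at this depth.

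Of the genes for the proteins that hold retinoic acid in the cytosol, Crabp1 had more RNA than Crabp2. Crabp1 (chr9:54764748-54773110) had 5.09, 9.48 and 5.68 CPM in WT and 3.57, 4.79 and 4.96 CPM in Edf1 KO. All Edf1 KO libraries were below all WT libraries, but only narrowly below WT replicate 1, and WT replicate 2 stood well above the rest. The fitted value, -0.54 on the log2 scale (SE 0.23), missed the threshold (adjusted p 0.0998 by edgeR). It was -0.25 (adjusted p 0.317) without WT replicate 2 and -0.72 (adjusted p 0.0430) without WT replicate 1, both by edgeR. Crabp2 (chr3:87948666-87953376), which is known to hand retinoic acid to the receptors, had 10, 2 and 5 counts in WT and 8, 8 and 5 in Edf1 KO. Without the count filter its log2 fold change was 0.27 (SE 0.63, adjusted p 0.811 by edgeR). Per kb, Crabp1 exceeded Crabp2 in all 6 libraries, by 8.42-fold to 70.8-fold, with the largest ratio in WT replicate 2, where Crabp2 had 2 counts.

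Cyp26b1 (chr6:84571414-84593908), which oxidises retinoic acid for removal, had 6, 3 and 5 counts in WT and 6, 6 and 7 in Edf1 KO. The CPM values overlapped, at 0.226 to 0.270 in WT and 0.248 to 0.369 in Edf1 KO. Without the count filter its log2 fold change was 0.34 (SE 0.62, adjusted p 0.752 by edgeR). The related Cyp26a1 and Cyp26c1 had at most 6 and 9 counts in a library and were not tested.

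Rarb (ENSMUSG00000017491.9, chr14:16430839-16819156), the receptor gene with the element printed above, had 10.6, 9.25 and 8.92 CPM in WT and 10.6, 12.9 and 13.2 CPM in Edf1 KO. Edf1 KO replicate 1 and WT replicate 1 were alike, so the groups overlapped by this one pair, while the other Edf1 KO libraries lay above all WT libraries. The mean rose from 9.58 ± 0.883 to 12.2 ± 1.46 CPM (SD, n = 3 each), which is 1.28-fold. The log2 fold change was 0.35 (SE 0.12), and its adjusted p of 0.0452 by edgeR is just inside the threshold. The call was lost by DESeq2 (adjusted p 0.0636) and by edgeR without WT replicate 2 (0.33, adjusted p 0.0524), WT replicate 3 (0.30, 0.121), Edf1 KO replicate 2 (0.32, 0.137) or Edf1 KO replicate 3 (0.29, 0.184).

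The count of Rarb also depends on how strand was handled, which is not given in the sources used here. At its 3′ end Rarb runs into Top2b, a DNA topoisomerase gene on the opposite strand (chr14:16365179-16435462). Exons of the opposite strand cover 38.4% of the exonic bases of Rarb. Of these, 1793 bases are covered by Top2b and 227, in a 5′ UTR exon, by the antisense gene Gm48162. Of the 31-base stretches of the longest Rarb transcript, 55.6% also occur, on either strand, in another gene's transcript, which is Top2b. Top2b had 297, 301 and 327 CPM in WT and 328, 318 and 353 CPM in Edf1 KO, with overlapping groups, and its fitted value was 0.11 on the log2 scale (SE 0.055, adjusted p 0.155 by edgeR). Its part in the Rarb result was not tested.

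**Figure D2:**
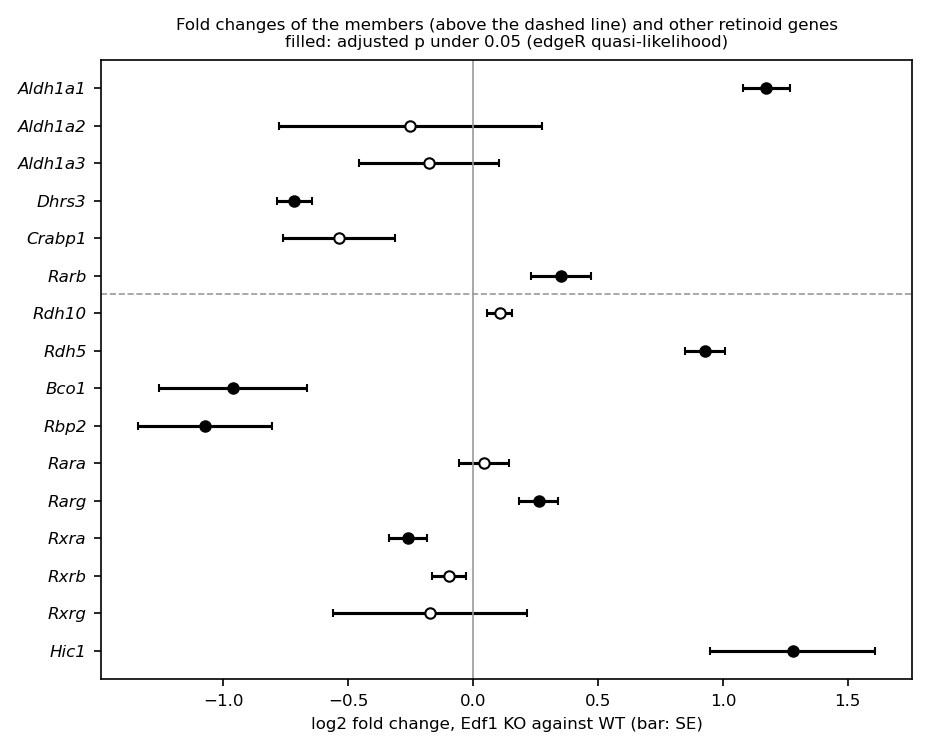
Log2 fold change of Edf1 KO against WT ± SE for the 6 tested members, above the dashed line, and for 10 other retinoid genes named by the rule, with filled symbols where edgeR's adjusted p is under 0.05. Aldh1a1 (1.17), Rdh5 (0.93) and Hic1 (1.28) lie to the right, and Dhrs3 (-0.71), Bco1 (-0.96) and Rbp2 (-1.07) to the left.

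**Figure D3:**
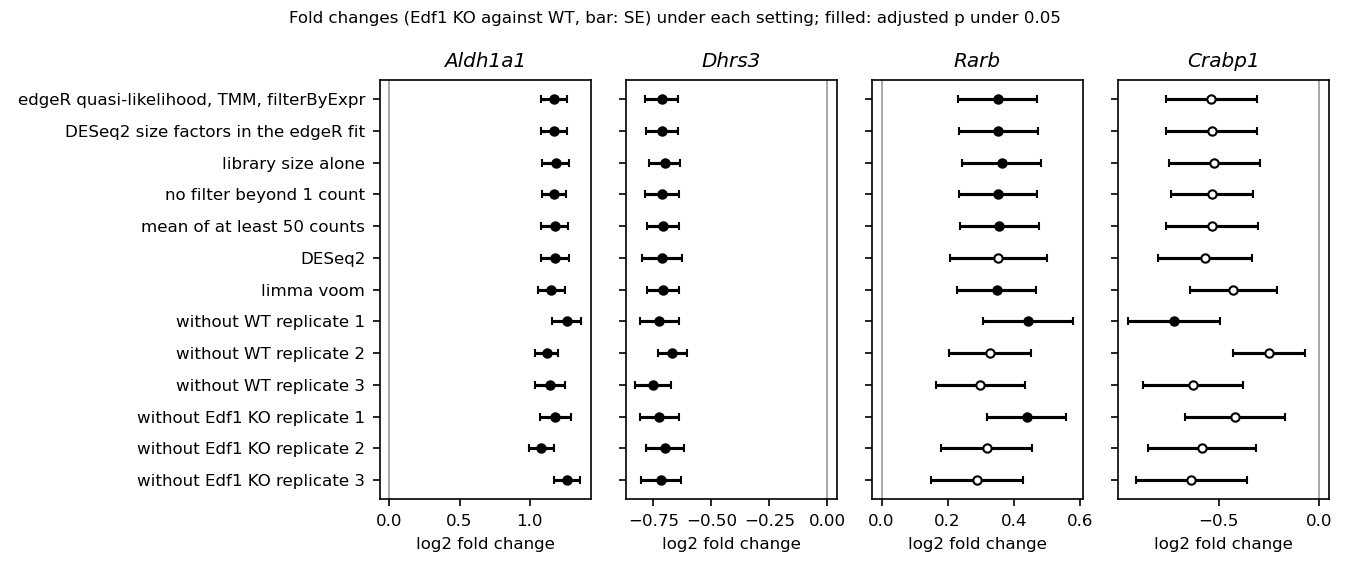
Log2 fold change ± SE of Aldh1a1, Dhrs3, Rarb and Crabp1 under the main edgeR fit, 6 other settings and 6 fits that each leave out a library, with filled symbols at an adjusted p under 0.05. Aldh1a1 (1.08 to 1.26) and Dhrs3 (-0.75 to -0.67) stay filled throughout, while Rarb opens in 5 of the settings drawn and Crabp1 is filled in 1.

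The members were then set beside 75 other retinoid genes, grouped by role. Of these, 48 were tested, and 9 rose and 7 fell, beside backgrounds of 12.7% and 14.2% of all tested genes. The median log2 fold change of the 48 was 0.053, against 0.0029 over all tested genes. The count of 16 called genes was 9 without WT replicate 1 or without Edf1 KO replicate 1, and 10 without Edf1 KO replicate 2 or 3.

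Upstream of the Aldh1a step, 1 of 10 tested genes of retinol oxidation and synthesis rose and 2 fell. Over all tested genes the shares were 12.7% and 14.2%. Rdh10, the main retinol dehydrogenase of the embryo, was at 104 ± 2.69 CPM in WT and 112 ± 2.22 CPM in Edf1 KO (SD, n = 3 each). The test was not passed, at 0.11 on the log2 scale (SE 0.052, adjusted p 0.152 by edgeR). Per kb, Rdh10 was at 28.4 to 29.8 CPM in WT and 30.7 to 31.9 in Edf1 KO, so Aldh1a1 moved from below Rdh10 in WT to a range around it in Edf1 KO.

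Rdh5, known for oxidising 11-cis retinol in the eye, had 13.6, 13.1 and 13.4 CPM in WT and 26.5, 26.0 and 24.1 CPM in Edf1 KO, with no overlap. It rose 1.91-fold (log2 fold change 0.93, SE 0.081, adjusted p 4.57e-06 by edgeR). Of its exonic bases, 25.6% are shared with Bloc1s1 on the same strand, a gene that rose from 87.0 ± 5.41 to 117 ± 3.08 CPM (log2 fold change 0.44, SE 0.059). The part of Bloc1s1 reads in the Rdh5 count was not tested. Bco1, which cleaves beta-carotene into retinaldehyde, fell from 1.81 ± 0.492 to 0.875 ± 0.102 CPM (log2 fold change -0.96, SE 0.30, adjusted p 0.0301 by edgeR). This call on 13 to 36 counts was lost in 5 of the 6 fits that leave out a library, all but the one without WT replicate 1. The other gene that fell was Rdh11 (-0.33), named here after its value was seen.

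Among the genes that bind, store and carry retinoids, Rbp2, a cellular retinol-binding protein known from the intestine, had 2.83, 4.27 and 2.16 CPM in WT and 1.41, 1.45 and 1.42 CPM in Edf1 KO. All Edf1 KO libraries were below all WT libraries. It fell to 46.2% of the WT mean (-1.07 on the log2 scale, SE 0.27, adjusted p 0.0107 by edgeR).

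Of 12 tested receptors and cofactors, 2 rose and 1 fell, beside 12.7% and 14.2% of all tested genes. Crym (0.37 on the log2 scale) is named after its value was seen, and the other two were Rarg and Rxra. Rarg rose from 19.2 ± 0.920 to 23.1 ± 0.148 CPM (log2 fold change 0.26, SE 0.077, adjusted p 0.0237 by edgeR), and Rxra fell from 24.9 ± 0.286 to 20.8 ± 1.16 CPM (log2 fold change -0.26, SE 0.077, adjusted p 0.0250 by edgeR). The call of Rarg was lost in 5 of the 6 fits that leave out a library (all but the one without WT replicate 2), with adjusted p values up to 0.0812. That of Rxra was lost in 4, those without WT replicate 1 or 3 or Edf1 KO replicate 1 or 3, with values up to 0.117. Rara (10.7 ± 0.524 and 11.1 ± 0.349 CPM), Rxrb (37.0 and 34.5 CPM) and Rxrg (0.649 and 0.540 CPM) did not pass the test, with log2 fold changes of 0.045, -0.095 and -0.17, the last of which was 0.090 without WT replicate 2. Per kb, the 3 Rar genes in WT ordered as Rarg (6.15 to 6.70 CPM per kb), then Rara (3.06 to 3.35) and Rarb (2.87 to 3.41), and the last pair overlapped. In Edf1 KO, Rarb (3.403 to 4.26 CPM per kb) lay just above Rara (3.17 to 3.38). Of the 31-base stretches of Rarb, 55.6% also occur in Top2b, and the strand setting is not given. The place of Rarb in this order is therefore uncertain in both genotypes.

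**Figure D4:**
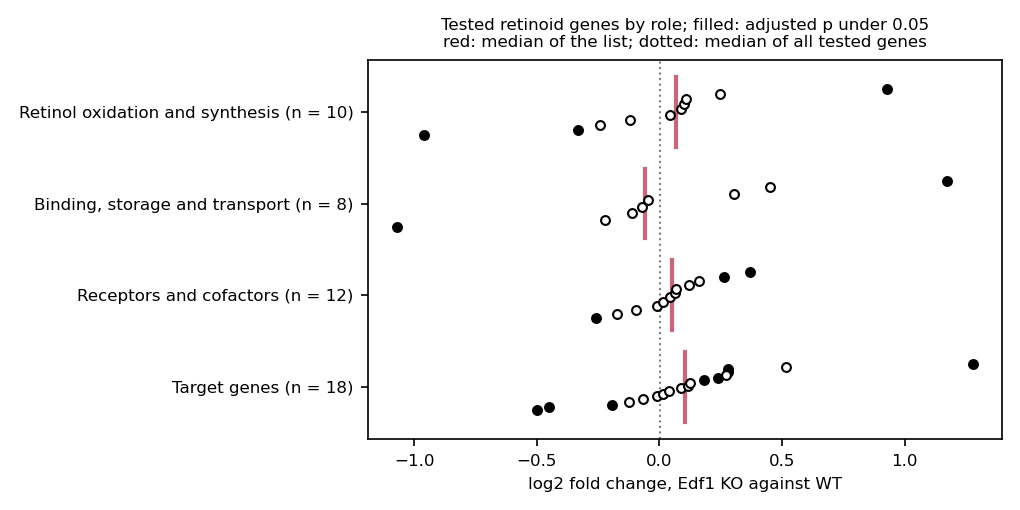
Log2 fold change of each of the 48 tested genes in 4 role lists, filled where edgeR's adjusted p is under 0.05, with the median of each list in red and that of all tested genes dotted (0.0029). The medians lie between -0.060 and 0.10, and the genes far from 0 are few and lie on both sides.

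Known targets of retinoic acid moved in both directions. Of 18 tested targets, 5 rose and 3 fell, with a median log2 fold change of 0.10. Over all tested genes, 12.7% rose and 14.2% fell. Besides Hic1, the genes that rose included Nr2f2 (0.28), Rai14 (0.24) and Cyp1b1 (0.18), and those that fell were Rarres2 (-0.50), Gprc5c (-0.45) and Meis2 (-0.19), all named after their values were seen. The gene with the largest change was Hic1, a transcriptional repressor, at 0.716, 0.699 and 0.757 CPM in WT and 2.398, 1.89 and 1.204 CPM in Edf1 KO. It rose by 1.28 on the log2 scale (SE 0.33, adjusted p 0.0124 by edgeR) on 9 to 39 counts, and the call was lost without Edf1 KO replicate 1 (1.05, adjusted p 0.0578 by edgeR). The 10 Hox genes on the list, the classic targets of the hindbrain and spinal cord, had 0 to 17 counts in a library, and 3 of them had 0 counts in all 6 libraries. None of the 10 was tested.

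Markers of other cells moved with genotype in the same libraries. The marker counts here and below stand beside 12.7% of all tested genes that rose and 14.2% that fell. Of 10 tested markers of meningeal fibroblasts, cells known to make retinoic acid, 5 rose and 0 fell, with a median log2 fold change of 0.73 (0.54 to 0.89, with 4 to 6 that rose, when a library was left out). The summed level of this list was 77.8 to 95.7 CPM in WT and 138 to 190 CPM in Edf1 KO. In Edf1 KO both this sum and Aldh1a1 were highest in replicate 2 and lowest in replicate 3. The same held for the pericyte and smooth muscle, choroid plexus, pituitary, radial glia and astrocyte, and neuron sums given below. It did not hold for the endothelial, oligodendrocyte, microglial and ependymal sums. In WT, replicate 1 had the lowest meningeal fibroblast sum (77.8 CPM) and the highest Aldh1a1 (35.5 CPM). The meningeal fibroblast markers that rose were the collagens Col1a1 (1.01), Col1a2 (0.80) and Col3a1 (1.102) and the matrix proteoglycans Dcn (1.25) and Lum (0.82). Foxc1 (0.40), Foxd1 (0.65), Ptgds (0.43), Igf2 (0.025) and Gjb2 (-0.27) were not called, while Slc6a13 and Slc47a1 had at most 6 and 2 counts in a library. Aldh1a2, described above as the main enzyme of the meninges, was not called either (-0.25). The part of meningeal fibroblasts in the rise of Aldh1a1 and Hic1 was not tested.

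Ependymal markers fell in 10 of 10 cases (median log2 fold change -0.95), from a summed 2604 to 2696 CPM in WT to 1487 to 1656 CPM in Edf1 KO. Relative to the WT mean, this sum was at 0.564 to 0.628 in the Edf1 KO libraries and Dhrs3 at 0.594 to 0.617, and its part in the fall of Dhrs3 was not tested. Microglial markers fell in 9 of 10 cases (median -0.62, summed 1954 to 2107 CPM in WT and 1302 to 1334 CPM in Edf1 KO). Relative to the WT mean, the microglial sum was at 0.647 to 0.663 in Edf1 KO, and its part in the fall of Dhrs3 was not tested either. Of 10 tested radial glia and astrocyte markers, 3 rose (Aldh1l1, Nes and Fabp7) and 2 fell (S100b and Gfap), with a median of 0.11 and a sum of 9942 to 10419 CPM in WT and 10900 to 11322 CPM in Edf1 KO. Without WT replicate 2, 5 of them rose and 3 fell, with a median of 0.052. Of 8 tested choroid plexus markers, 2 rose (Trpm3, 2.52, and Otx2, 0.68) and 1 fell (Calml4, -0.61), with a median of -0.0022 that ranged from -0.14 to 0.16 when a library was left out. The sum was 152 to 186 CPM in WT and 186 to 210 in Edf1 KO. Trpm3 alone went from 5.97 ± 0.608 to 34.6 ± 2.97 CPM (SD, n = 3 each), so the shift of the sum leans on this 1 gene. Under the count filter, the choroid plexus markers Kl, Slc4a5 and Prlr had at most 8, 4 and 1 counts. Aqp1 had 13, 6 and 13 counts in WT and 3, 7 and 11 in Edf1 KO. In CPM, all its Edf1 KO libraries were below all WT libraries.

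Markers of dopamine neurons, which are known to express Aldh1a1, were at or under the floor of 3 counts. Th had 0 counts in every WT library and 0, 1 and 2 in Edf1 KO. Slc6a3 had 0 counts in every WT library and 0, 3 and 3 in Edf1 KO. Of 6 tested neuron markers, 0 rose and 2 fell (Dcx and Tubb3), with a median of -0.40. It was -0.18 without WT replicate 1 and -0.21 without Edf1 KO replicate 3, but those fits tested 7 neuron markers. In fits that tested 6, it was -0.39 without WT replicate 3 and -0.46 without Edf1 KO replicate 1. The neuron sum was 42.4 to 45.4 CPM in WT and 37.8 to 41.0 in Edf1 KO. Of 4 tested pituitary genes, 3 rose (Prl, Cga and Pomc) and 1 fell (Lhb). Prl had 0 counts in every WT library and 131 to 198 in Edf1 KO. Of 4 tested pericyte and smooth muscle markers 3 rose (Pdgfrb, Acta2 and Tagln), and 2 rose without WT replicate 1 or Edf1 KO replicate 2. The other, Myh11, had a negative value that was not called (-0.76, SE 0.47, adjusted p 0.263 by edgeR). The median of the 4 was 0.25, and the list summed to 783 to 828 CPM in WT and 930 to 1006 in Edf1 KO. Under the count filter, Rgs5, Kcnj8, Abcc9 and Des had at most 11, 5, 1 and 5 counts, with overlapping groups. Of 2 tested endothelial genes, Kdr rose (1.73) and Flt1 fell (-1.58). Under the count filter, Cdh5 had 2, 4 and 5 counts in WT and 8, 26 and 13 in Edf1 KO. In CPM, all its Edf1 KO libraries were above all WT libraries. Pecam1 and Tek overlapped, with at most 5 and 16 counts, and Cldn5 had at most 1 count. Of 6 tested oligodendrocyte genes 1 rose (Cspg4) and 0 fell, with a sum of 120 to 131 CPM in WT and 131 to 142 in Edf1 KO. That call was lost without WT replicate 3, Edf1 KO replicate 1 or Edf1 KO replicate 3. The median was 0.11, and it was 0.011 without WT replicate 2, 0.056 without Edf1 KO replicate 1 and -0.019 without Edf1 KO replicate 2. Those fits tested 7 oligodendrocyte genes. In fits that tested 6, the median was 0.155 without WT replicate 1 and 0.149 without Edf1 KO replicate 3. The part of these lists in the results was not tested.

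**Figure D5:**
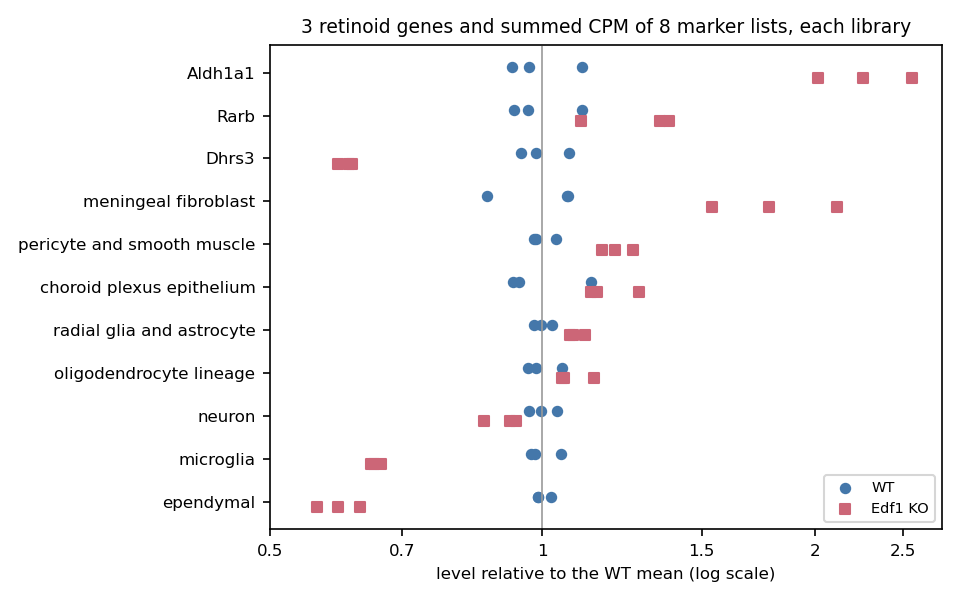
Level of 3 retinoid genes and summed CPM of 8 marker lists in each library, relative to the WT mean on a log axis, with WT as blue circles and Edf1 KO as red squares. The mean of Aldh1a1 (2.01 to 2.56) lies above that of the meningeal fibroblast sum (1.54 to 2.12). Dhrs3 (0.594 to 0.617) lies beside the ependymal sum (0.564 to 0.628) and just below the microglial sum (0.647 to 0.663). The endothelial (2.57 to 2.65) and pituitary (1.57 to 1.92) sums are not drawn.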

How the data were processed

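RNA from 6 cultures was sequenced after TRIzol extraction and an MGIEasy mRNA library kit, per the labels' protocols. The authors deposited whole-number read counts per gene symbol, 1 column per library, and no per-sample column was left unused. FastQC 0.11.2, cutadapt 1.11, HISAT2 2.1.0 and the build GRCm38 are listed in the submitters' processing notes, and the counting program, annotation and strand setting are not given in the sources used here. Unstranded counting would mix reads of overlapping genes, so exon overlaps and shared 31-base stretches were computed from GENCODE M21 (GRCm38).

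Counts were analysed in R 4.3.3 with edgeR 4.0.16: filterByExpr, TMM scaling, and the quasi-likelihood test of 3 Edf1 KO against 3 WT libraries with no covariate. Adjusted p values of this main fit are Benjamini-Hochberg values over all 14243 tested genes, with a threshold of 0.05. In the other edgeR fits they are over the genes that each fit tested. These numbered 17938 without the count filter and 14359 to 14419 with a library left out. Each SE was taken as the log2 value over the root of its F statistic, and 95% intervals are normal. CPM uses TMM-scaled library sizes. Fits were tested on simulated data. Alternatives were DESeq2 1.42.0, its size factors in edgeR, library size alone, limma 3.58.1 voom, no filter, a mean of at least 50 counts, a threshold of 0.01, the replicate number as a block, and each library left out.

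The members and gene lists were chosen with earlier results of these data known. Markers and overlapping genes aside, the text names all 9 members, Edf1, other retinoid genes fixed by name, and others called with an absolute log2 fold change of at least 0.5, plus those stated to be named after their values were seen. Some genes of these lists are not reported here. Promoter sequences are from RefSeq (GRCm38.p6). Deviations from the group mean correlated at 0.037 to 0.069 between same-numbered libraries, so no pairing was assumed.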

Additional observations from a re-analysis of the deposited data

How the results depend on the processing

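Depth limits the low genes: Crabp2, Stra6 and Cyp26b1 had at most 16 counts in a library. Aldh1a1 and Dhrs3 kept direction and call in all 14 alternatives, at 1.08 to 1.26 and -0.75 to -0.67. Member calls numbered 3, and 2 to 4 without a library. A threshold of 0.01 left 2213 of 3833 called genes over the whole table and 7 of 16 other retinoid genes, and ended the Rarb call (0.35). Rarb also lost its call by DESeq2 (0.35, adjusted p 0.0636) and without 4 of the libraries, with a range of 0.29 to 0.44 over the fits that leave out a library. Crabp1 ranged from -0.72 to -0.25 in those fits, and Aldh1a2 from -0.88 to 0.11, where it turned positive without Edf1 KO replicate 1. The other retinoid genes called numbered 9 to 18 there, and all called genes 2658 to 4340. The replicate number as a block ended the Rarb call (0.35, adjusted p 0.0662), added Crabp1 (-0.55, adjusted p 0.0355, edgeR), and gave 4065 called genes. The libraries share only a number. The cause of these changes was not tested.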

Other observations

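Among retinoid genes too low for the main test, 1 is given here that was chosen after its values were seen. Lrat, the enzyme that stores retinol as esters, had 22, 6 and 16 counts in WT and 3, 2 and 10 in Edf1 KO, and its CPM was lower in every Edf1 KO library than in any WT library. In the edgeR fit without the count filter its log2 fold change was -1.64 (SE 0.55, adjusted p 0.0346).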
